A study of Rattus norvegicus with 6 samples.

Results

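The kinesins are the motor proteins that walk along microtubules, and their genes were followed in cultured rat oligodendrocyte precursor cells (OPCs) treated with the RIPK1 inhibitor ZJU-37 or with its solvent DMSO. All rows of the deposited table whose symbol is Kif or Kifc followed by a digit were taken. This gave 42 rows, of which 1, Kif1bp, was left out because it is an older symbol of Kifbp, a protein that binds kinesins and is not one. The remaining 41 genes, out of 32883 in the table, were assigned by their known subfamily and role to 13 mitotic kinesins, 13 transport kinesins (kinesin-1, kinesin-2 and kinesin-3 without Kif14) and 15 others. The rule uses names only, whereas the classes were assigned with earlier results of these data known.

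The OPCs came from pooled cerebral cortices of newborn (P0) Sprague Dawley rats, were shaken off a mixed culture kept for 7 days in serum, and were then grown in Neurobasal with B27 and N2. One group of 3 libraries received 5 µM ZJU-37, a small molecule that differs from the RIPK1 inhibitor Nec-1s by an introduced amide bond, and the other group of 3 received an equal volume of DMSO. The labels give 36 h of treatment, whereas the Methods of the study give a shorter time. The question was how the inhibitor changes transcription in OPCs.

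Kinesins share a motor domain that turns ATP hydrolysis into steps along a microtubule, and they differ in what is attached to it. Some act only when a cell divides: they push spindle poles apart, move and align chromosomes, and build the midzone on which the cell is cut into daughters. Others carry vesicles, mitochondria and mRNA between the cell body and the periphery, and others still shorten microtubules, set the length of cilia or act in signalling without walking. Oligodendrocyte lineage cells use both kinds, since OPCs divide and later move myelin components such as Mbp mRNA into long processes.

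Library totals ran from 13935865 to 24097927 counts. CPM values of genes are counts relative to the TMM-scaled library total. On the unscaled totals, 3 counts corresponded to between 0.124 and 0.215 CPM. This detection limit allows for counting error and for nothing else. Of the 41 genes, 38 had enough counts to be tested. Kif2b, Kif12 and Kif28p were not. Kif2b had no count in any library, which allows at most 0.215 CPM on the unscaled totals. Kif12 and Kif28p had between 0 and 2 counts per library. All OPC markers were detected, with summed levels between 4038 and 6138 CPM per library. Markers of oligodendrocytes, neurons, astrocytes and microglia were present as well, none of them at 0, and their values are given beside the kinesins they moved with. In bulk RNA a change in the number of cells of a kind and a change in RNA per cell cannot be told apart.

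All 12 tested mitotic kinesins rose with ZJU-37. Each was expressed at between 2.12 and 2.62 times its DMSO level, with log2 fold changes from 1.09 for Kifc1 to 1.39 for Kif14 and a median of 1.24. Across all 14670 tested genes, 9.43% were called higher at an adjusted p under 0.05 (edgeR's quasi-likelihood test, Benjamini-Hochberg adjustment), and the median log2 fold change was -0.03. In all 12 the 3 ZJU-37 libraries lay above the 3 DMSO libraries, which was so for 19.0% of all tested genes. The adjusted p-values of the 12 lay between 2.70e-04 and 0.00407 (edgeR). The members lay close together: the differences between same-numbered libraries ran from 0.93 to 1.54 on the log2 scale, and in 10 of the 12 genes the pair of replicate 1 gave the largest. The count of 12 depends on the class list. Kif2a, which also acts on spindle pole microtubules, was placed among the others and was not called (log2 fold change 0.15, adjusted p = 0.398, edgeR).

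Among the motors that set up the spindle, Kif11 (kinesin-5) slides antiparallel microtubules and pushes the poles apart. The table places it on chromosome 1, plus strand, between 256035866 and 256088299, without naming a genome build, and the same holds for the other positions taken from it. Its level was 78.4, 71.5 and 68.5 CPM for the control libraries (DMSO replicates 1, 2 and 3) and 197, 153 and 152 CPM for the treated ones (ZJU-37 replicates 1, 2 and 3). Every treated library was above every control, with ZJU-37 replicate 1 the highest of the 6, and the mean moved from 72.8 ± 5.08 CPM to 167 ± 25.9 CPM (SD, n = 3 each; log2 fold change 1.20, standard error 0.12, adjusted p = 0.00111, edgeR). Kif15 (kinesin-12), which helps to keep the spindle bipolar, was at 41.4, 38.8 and 33.4 CPM with DMSO and 109.5, 74.2 and 80.7 CPM with ZJU-37, in the order of replicates 1, 2 and 3 used throughout. It had the largest standard error of the mitotic members, with ZJU-37 replicate 1 well above the other two, and still no overlap (log2 fold change 1.22, standard error 0.16, adjusted p = 0.00407, edgeR). Its annotated span shares 3529 bases with RGD1311745 on the opposite strand, a gene with 1400 counts in all against 7398 for Kif15, so that the assignment of some reads is uncertain. Kifc1 (kinesin-14), a minus-end motor that gathers microtubules at the poles, was at 56.1, 56.4 and 53.2 CPM with DMSO and 135, 108 and 108 CPM with ZJU-37. It had the smallest fold change of the class (log2 fold change 1.09, standard error 0.10, adjusted p = 8.03e-04, edgeR).

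The motors that move and align chromosomes rose to a similar extent. Kif22 (kinesin-10), which sits on chromosome arms and pushes them toward the equator, was at 64.96, 64.4 and 62.9 CPM with DMSO and 158, 138 and 137 CPM with ZJU-37. Its DMSO libraries lay close together, far below every treated library (log2 fold change 1.17, standard error 0.07, adjusted p = 3.20e-04, edgeR). Kif4a (kinesin-4), on chromosome arms and later in the midzone, was at 43.8, 41.9 and 46.05 CPM with DMSO and 116, 96.1 and 102 CPM with ZJU-37 (log2 fold change 1.25, standard error 0.09, adjusted p = 3.98e-04, edgeR). Kif18a (kinesin-8), which damps chromosome oscillation at metaphase, was at 11.9, 12.9 and 10.9 CPM with DMSO and 32.8, 28.2 and 27.1 CPM with ZJU-37 (log2 fold change 1.30, standard error 0.11, adjusted p = 6.67e-04, edgeR). Its relative Kif18b, which trims astral microtubules, was at 51.8, 48.5 and 44.8 CPM with DMSO and 123, 96.96 and 103 CPM with ZJU-37 (log2 fold change 1.15, standard error 0.11, adjusted p = 8.53e-04, edgeR). Groups overlapped for neither gene. Kif2c (kinesin-13, also MCAK), which takes microtubules apart at kinetochores to release wrong attachments, was at 31.2, 32.2 and 29.1 CPM with DMSO and 85.5, 78.02 and 74.8 CPM with ZJU-37. It had the second largest fold change of the class (log2 fold change 1.37, standard error 0.08, adjusted p = 2.70e-04, edgeR).

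The motors of cytokinesis followed. Kif23 (kinesin-6), the motor subunit of centralspindlin at the midzone, lies on chromosome 8, minus strand, between 66866082 and 66893196. It stood at 31.97, 31.2 and 31.99 CPM with DMSO and 82.2, 71.1 and 73.5 CPM with ZJU-37, so that its DMSO libraries differed by under 1 CPM and all lay far below the treated ones (log2 fold change 1.25, standard error 0.07, adjusted p = 3.12e-04, edgeR). Kif20a (kinesin-6, also MKLP2), which brings Aurora B to the midzone, was at 58.1, 52.3 and 50.7 CPM with DMSO and 129.7, 119 and 116 CPM with ZJU-37 (log2 fold change 1.18, standard error 0.08, adjusted p = 3.48e-04, edgeR). Its span shares 1910 bases with Cdc23 on the other strand, and Cdc23 itself was not called (log2 fold change 0.10, adjusted p = 0.5, edgeR). For Kif20b (kinesin-6), which acts at the midbody during abscission, the values were 21.5, 20.7 and 21.01 CPM with DMSO and 58.3, 45.1 and 48.6 CPM with ZJU-37 (log2 fold change 1.27, standard error 0.11, adjusted p = 5.97e-04, edgeR). Kif14, the kinesin-3 that recruits citron kinase to the midbody, had 16.9, 17.95 and 13.95 CPM with DMSO and 48.7, 38.5 and 40.6 CPM with ZJU-37. It carried the largest fold change of the class (log2 fold change 1.39, standard error 0.13, adjusted p = 9.63e-04, edgeR), from the lowest DMSO level per length, 3.23 ± 0.421 FPKM.

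**Figure D1:**
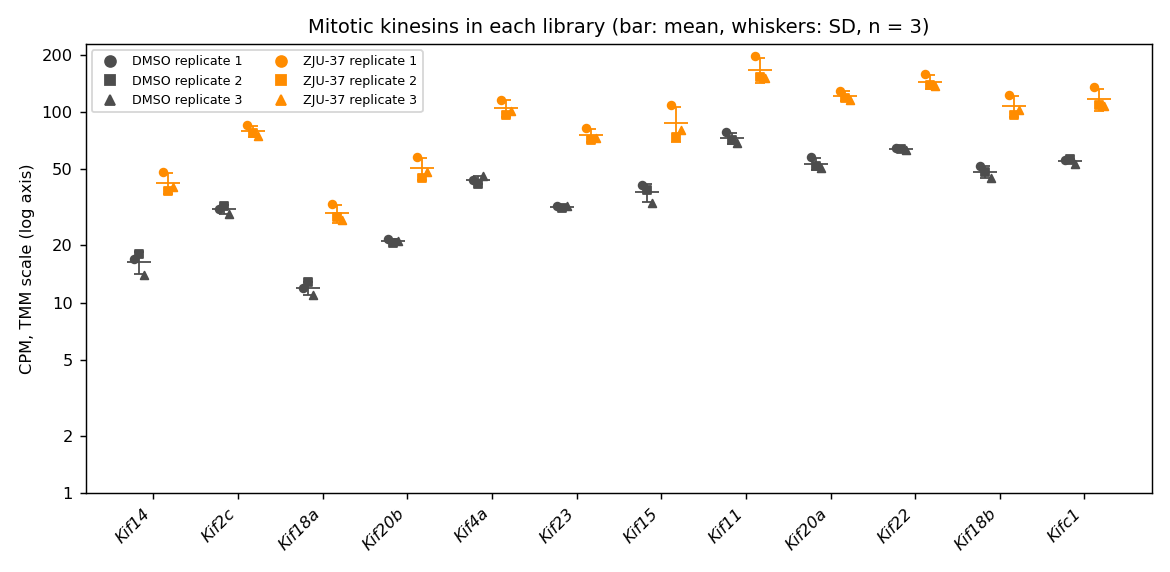
Level of the 12 tested mitotic kinesins in each library, in CPM on the TMM scale (log axis), ordered by fold change. Grey symbols are DMSO and orange symbols ZJU-37 libraries, shaped by replicate number, with the mean as a bar and the SD as whiskers (n = 3). In every gene the 3 orange symbols lie above the 3 grey ones.

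Because these genes moved together, the 250 bases before their annotated start were read from the RefSeq promoter table (GRCr8), which held 11 of the 13 mitotic, 11 of the 13 transport and 9 of the 15 other members. Promoters of genes expressed in late cell cycle are known to carry the cell cycle genes homology region (CHR) together with CCAAT boxes, which are bound by the DREAM and MuvB complexes and by NF-Y. CHR was searched as TTTGAA or TTCGAA and the CCAAT box as CCAAT, on both strands. Matches of the 2 motifs share no base in the sequences shown. CHR was found in 5 of 11 mitotic (45.5%), 0 of 11 transport and 3 of 9 other promoters (33.3%), and in 17.3% of 27457 promoters of the same length. CCAAT was found in 7 of 11 mitotic (63.6%), 3 of 11 transport (27.3%) and 3 of 9 other promoters (33.3%), against 34.3% of all. Both motifs were present in 4 of 11 mitotic promoters (36.4%), namely those of Kif20b, Kif23, Kif22 and Kifc1, in 0 of 11 transport promoters, in 2 of 9 other promoters (22.2%), those of Kif24 and of Kif26b, which was not called, and in 6.22% of all. A match is a run of letters, and binding was not measured here.

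The sequences below are those of the 4 mitotic members with the largest fold change that have an entry (Kif14 has none), followed by Kif23 and Kif24, which were added after their motifs had been seen, the first as the motor of centralspindlin with both motifs side by side and the second as the called member outside the mitotic class with the most motif matches. Capitals mark CHR and CCAAT letters (ATTGG is CCAAT on the other strand), and each run ends at the base before the start. On GRCr8 the windows are chr5:135899213-135899462, minus strand for Kif2c, chr3:116218757-116219006, plus strand for Kif18a, chr1:241840766-241841015, plus strand for Kif20b, chrX:69761633-69761882, plus strand for Kif4a, chr8:71320585-71320834, minus strand for Kif23 and chr5:61423883-61424132, minus strand for Kif24.
Kif2c: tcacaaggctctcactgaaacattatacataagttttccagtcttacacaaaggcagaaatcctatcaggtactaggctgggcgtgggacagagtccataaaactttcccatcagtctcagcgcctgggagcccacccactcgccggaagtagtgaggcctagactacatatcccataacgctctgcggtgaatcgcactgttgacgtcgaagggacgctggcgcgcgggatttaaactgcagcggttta
Kif18a: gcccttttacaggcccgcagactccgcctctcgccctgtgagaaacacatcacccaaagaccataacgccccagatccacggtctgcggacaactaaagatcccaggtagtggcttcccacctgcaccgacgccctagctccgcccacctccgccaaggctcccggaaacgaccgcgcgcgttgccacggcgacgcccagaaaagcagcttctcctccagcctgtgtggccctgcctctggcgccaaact
Kif20b: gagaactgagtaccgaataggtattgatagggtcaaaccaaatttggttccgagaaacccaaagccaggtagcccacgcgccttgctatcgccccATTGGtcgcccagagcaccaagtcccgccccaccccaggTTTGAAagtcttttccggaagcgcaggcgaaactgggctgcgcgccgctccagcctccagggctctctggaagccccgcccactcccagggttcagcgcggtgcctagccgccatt
Kif4a: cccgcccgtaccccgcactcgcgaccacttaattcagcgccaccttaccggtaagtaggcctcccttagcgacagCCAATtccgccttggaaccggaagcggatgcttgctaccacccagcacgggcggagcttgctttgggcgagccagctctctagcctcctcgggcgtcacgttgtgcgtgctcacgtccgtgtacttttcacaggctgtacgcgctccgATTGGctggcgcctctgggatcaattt
Kif23: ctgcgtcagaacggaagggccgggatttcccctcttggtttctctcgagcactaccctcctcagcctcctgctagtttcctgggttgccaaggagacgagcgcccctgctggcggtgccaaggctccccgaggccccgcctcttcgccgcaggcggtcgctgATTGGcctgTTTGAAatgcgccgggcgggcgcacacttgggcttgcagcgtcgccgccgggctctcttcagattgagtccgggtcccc
Kif24: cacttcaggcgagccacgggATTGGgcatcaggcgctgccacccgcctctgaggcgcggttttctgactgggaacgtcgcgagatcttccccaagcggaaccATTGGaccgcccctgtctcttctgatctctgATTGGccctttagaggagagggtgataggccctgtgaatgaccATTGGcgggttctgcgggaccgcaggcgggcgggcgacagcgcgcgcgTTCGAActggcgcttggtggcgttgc
Positions count from the start back to the first printed base of a match. In Kif23 a CCAAT match lies at 88 and CHR at 79. Kif24, a member outside the mitotic class that also rose, has 4 CCAAT matches and 1 CHR match, the latter at 26. Kif2c and Kif18a have neither set of letters in this window, although both were among the most changed members.

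Of the 13 transport kinesins, all tested, 1 rose (Kif13a) and none fell at an adjusted p under 0.05 in the test without a block. In that test 9.43% of all tested genes were called higher and 5.58% lower. At an unadjusted p under 0.05 (edgeR) 2 were lower, Kif1b and Kif13b, and DESeq2 and limma called 0 lower after adjustment. The median log2 fold change of the class was -0.09. The treated libraries lay wholly below the controls in 1 member, Kif1b, as they did in 16.2% of all tested genes. They lay wholly above the controls in 1 member, Kif13a, as they did in 19.0% of all tested genes. The 12 members that were not called had log2 fold changes between -0.96 and 0.17, and those of 11 of them lay between -0.32 and 0.17. The replicate numbers pair the libraries, and with the number as a block 5 members were called lower, namely Kif1a, Kif5a, Kif1b, Kif13b and Kif17, beside a background of 15.9% lower and 16.2% higher of all tested genes. Kif13a was called higher in both fits.

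Kinesin-1, a motor that carries its cargo through light chains, is made from 3 heavy chain genes. Kif5b, the ubiquitous one, was at 223, 202 and 208 CPM with DMSO and 224, 222 and 209 CPM with ZJU-37. The groups overlapped and the log2 fold change was 0.05 (standard error 0.06). Kif5c, a heavy chain of neurons, was at 202, 149.9 and 179.6 CPM with DMSO and 187, 152 and 174 CPM with ZJU-37, with overlap and a log2 fold change of -0.05 (standard error 0.13). Kif5a, the other neuronal heavy chain, was at 132, 78.97 and 104 CPM with DMSO and 107, 67.4 and 84.1 CPM with ZJU-37. DMSO replicate 2 lay under ZJU-37 replicates 1 and 3, so the groups overlapped, but within each pair the treated library was lower, by 0.30, 0.23 and 0.30 on the log2 scale. Its adjusted p was 0.497 without and 0.00289 with the replicate block (edgeR). Its log2 fold change, -0.28 without the block, ran from -0.45 to -0.08 with 1 library left out. The span of Kif5a shares 809 bases with Dctn2 on the other strand, which had 23398 counts in all against 10579 for Kif5a.

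Kinesin-2 works in cilia and in vesicle transport. Its subunits Kif3a and Kif3b had log2 fold changes of -0.09 (standard error 0.10) and -0.03 (standard error 0.08). The related Kif3c had 0.17 (standard error 0.10). Groups overlapped for each of these genes (adjusted p from 0.317 to 0.82, edgeR). Kif17, which carries receptors in dendrites and also enters cilia, was at 17.3, 9.54 and 7.06 CPM with DMSO and 6.81, 7.90 and 2.68 CPM with ZJU-37. It had the largest spread of any transport member, and ZJU-37 replicate 2 lay above DMSO replicate 3 (log2 fold change -0.96, standard error 0.48, adjusted p = 0.257, edgeR, and log2 fold change -0.98, adjusted p = 0.0215 with the replicate block). With 1 library left out, its log2 fold change ran from -1.22 to -0.52. The summed oligodendrocyte markers ran in the same order as Kif17 within each group, at 25278, 18402 and 13289 CPM with DMSO and 9254, 10528 and 5238 CPM with ZJU-37. Their part in the Kif17 values was not tested.

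Kinesin-3 includes the fast carriers of synaptic vesicle precursors, endosomes and mRNA. Kif1a, which moves synaptic vesicle precursors and dense core vesicles, lies on chromosome 9, minus strand, between 100171772 and 100253609 and had 744, 555 and 511 CPM with DMSO and 548, 447 and 453 CPM with ZJU-37. DMSO replicate 1 was the highest of all libraries, and ZJU-37 replicate 1 exceeded DMSO replicate 3, so the groups overlapped (log2 fold change -0.32, standard error 0.16, adjusted p = 0.247, edgeR, and log2 fold change -0.31, adjusted p = 0.00356 with the block). With 1 library left out, the log2 fold change of Kif1a ran from -0.43 to -0.14, the latter without DMSO replicate 1. Kif1b, known for its part in carrying myelin mRNA along oligodendrocyte processes, was at 1187, 984 and 980.1 CPM with DMSO and 925, 879.8 and 845 CPM with ZJU-37. Its treated libraries all lay below its controls, by 0.16 to 0.36 within pairs, but it did not pass the test without the block (log2 fold change -0.25, standard error 0.10, adjusted p = 0.146, edgeR, and log2 fold change -0.24, adjusted p = 0.00813 with the block). Kif13b, which carries vesicles with the phosphatidylinositol signalling lipid PIP3, also passed only with the block (log2 fold change -0.21, adjusted p = 0.15 without and 0.0347 with it, edgeR). Kif1c and Kif16b, carriers of vesicles with mRNA and of early endosomes, had log2 fold changes of -0.05 (standard error 0.08) and -0.09 (standard error 0.19) with overlapping groups.

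Kif13a, which pulls recycling endosomes into tubules, was the transport kinesin called higher. It was at 108, 107 and 105 CPM with DMSO and 150.1, 122 and 129 CPM with ZJU-37. The 3 DMSO libraries were close to each other and all treated libraries lay above them (log2 fold change 0.32, standard error 0.08, adjusted p = 0.0459, edgeR). This call sat at the threshold: it was lost without any 1 of DMSO replicate 1, 2 or 3 or ZJU-37 replicate 3 (adjusted p up to 0.133, edgeR), while the log2 fold change stayed between 0.25 and 0.41.

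Neuron markers were measured beside the neuronal motors. Their summed level was 1336, 938 and 1109.7 CPM with DMSO and 1259, 857 and 1030.1 CPM with ZJU-37, again lower within each pair and highest in replicate 1. Of the 14 neuron markers, all tested, 1 rose (Elavl4, log2 fold change 1.32, adjusted p = 5.97e-04, edgeR) and 0 fell without the block (2, Gad2 and Syt1, at an unadjusted p under 0.05), and 5 were called lower with it. The median over the 14 was -0.24. Of all tested genes, 9.43% were called higher and 5.58% lower without the block, and 15.9% were called lower with it. The part of these cells in the levels of Kif1a, Kif5a and Kif5c was not tested.

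The 15 other kinesins held the largest decreases of the family. Of 13 that were tested, 1 rose (Kif24) and 4 fell (Kif19, Kif26a, Kif21a and Kifc3), where 9.43% of all tested genes were called higher and 5.58% lower. With the replicate block Kifc2 was called lower as well, where 15.9% of all tested genes were. Kif19 (kinesin-8), a motor that shortens microtubules and limits the length of motile cilia, lies on chromosome 10, plus strand, between 103308392 and 103334466. It was at 15.1, 6.66 and 8.91 CPM with DMSO and 2.43, 1.74 and 1.40 CPM with ZJU-37, with no overlap although DMSO replicate 1 stood well above the other controls (log2 fold change -2.46, standard error 0.37, adjusted p = 0.00588, edgeR). Its span shares 415 bases with Btbd17 on the other strand, which moved the opposite way (log2 fold change 1.06, adjusted p = 0.0113, edgeR). Kif26a (kinesin-11), which has lost motility and restrains signalling of the receptor Ret in the enteric nervous system, was at 119, 94.3 and 75.01 CPM with DMSO and 34.2, 25.00 and 24.00 CPM with ZJU-37. All treated libraries were far below the lowest control (log2 fold change -1.79, standard error 0.21, adjusted p = 0.00256, edgeR).

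Kif21a (kinesin-4), which halts microtubule growth near the cell cortex, was at 95.04, 63.4 and 61.9 CPM with DMSO and 28.3, 30.5 and 27.7 CPM with ZJU-37. DMSO replicate 1 stood above the other controls, and the treated libraries were close together below them (log2 fold change -1.35, standard error 0.18, adjusted p = 0.00367, edgeR). For Kifc3 (kinesin-14), a minus-end motor linked to cell junctions, the values were 206, 207 and 195 CPM with DMSO and 112, 104 and 103 CPM with ZJU-37. It had the smallest standard error of the 4 and a mean that moved from 203 ± 6.68 CPM to 106 ± 5.26 CPM (SD, n = 3 each; log2 fold change -0.93, standard error 0.06, adjusted p = 3.70e-04, edgeR). Kifc2 (kinesin-14), a minus-end motor of neurons, was at 19.7, 12.3 and 16.2 CPM with DMSO and 13.7, 8.38 and 11.6 CPM with ZJU-37, with overlapping groups and decreases within pairs of 0.53, 0.55 and 0.48 (log2 fold change -0.52, standard error 0.23, adjusted p = 0.206, edgeR, and log2 fold change -0.52, adjusted p = 0.00313 with the replicate block).

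Kif24 (kinesin-13), a centriolar protein that keeps cycling cells from growing a cilium, was the member outside both named classes that rose, at 10.5, 7.00 and 7.21 CPM with DMSO and 17.6, 15.7 and 14.3 CPM with ZJU-37. The groups did not overlap (log2 fold change 0.95, standard error 0.19, adjusted p = 0.0161, edgeR), but the call was lost without DMSO replicate 2 or without DMSO replicate 3 (adjusted p = 0.0623 and 0.0631, edgeR). Kif2a, a depolymerase of interphase and spindle pole microtubules, had a log2 fold change of 0.15 (standard error 0.10), and Kif7, a ciliary regulator of hedgehog signalling, had 0.08 (standard error 0.09). Kif21b, Kif27 and Kif26b had -0.03 (standard error 0.08), 0.32 (standard error 0.22) and -0.21 (standard error 0.19), none of them called. Kif6 and Kif9, motors of motile cilia, had low levels, with means between 0.865 and 1.47 CPM in the DMSO group and no call.

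**Figure D2:**
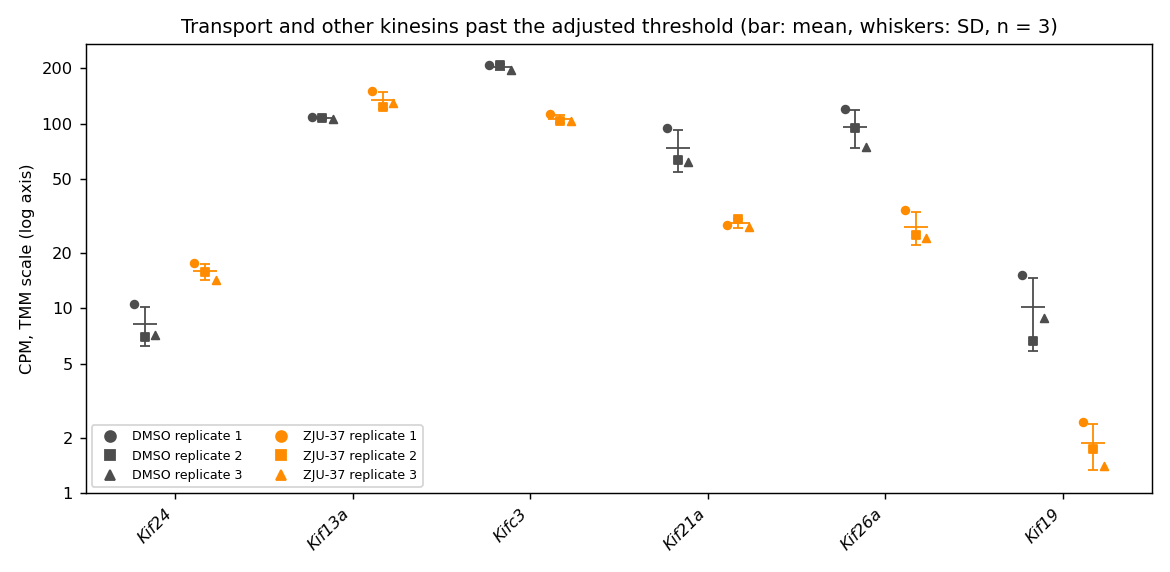
Level in each library, in CPM on the TMM scale (log axis), of the 6 kinesins outside the mitotic class that passed an adjusted p under 0.05. Grey symbols are DMSO and orange symbols ZJU-37 libraries, with the mean as a bar and the SD as whiskers (n = 3). Kif24 and Kif13a are higher with ZJU-37, whereas Kifc3, Kif21a, Kif26a and Kif19 are lower, and no gene shows overlap between groups.

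Some oligodendrocyte markers fell beside these genes. The shares to read the marker counts against are 9.43% higher and 5.58% lower of all tested genes, and 16.2% and 15.9% with the replicate block. Their 12 members were all tested, 4 fell (Enpp6, Bcas1, Myrf and Cnp, log2 fold changes -2.34, -2.18, -1.69 and -1.36, edgeR adjusted p up to 0.00362) and 0 rose (8 lower and 0 higher at an unadjusted p under 0.05), with a median of -1.01. Among the 8 OPC markers, 4 rose and 3 fell, and the largest decrease was that of Gpr17, a receptor of committed precursors, with -3.43. Of the 10 astrocyte markers 1 fell, and of the 12 microglia markers 0 were called by edgeR, at an unadjusted p under 0.05 as well. With the block 5 of each list were lower, and 1 astrocyte marker, S100b, was higher (log2 fold change 0.26, adjusted p = 0.0087, edgeR). The astrocyte markers summed to between 961 and 1744 CPM per library and the microglia markers to between 1841 and 4393 CPM. With the replicate block 7 oligodendrocyte markers were called lower. The part of these cell types in the values of Kif19, Kif26a, Kif21a and Kifc3 was not tested.

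**Figure D3:**
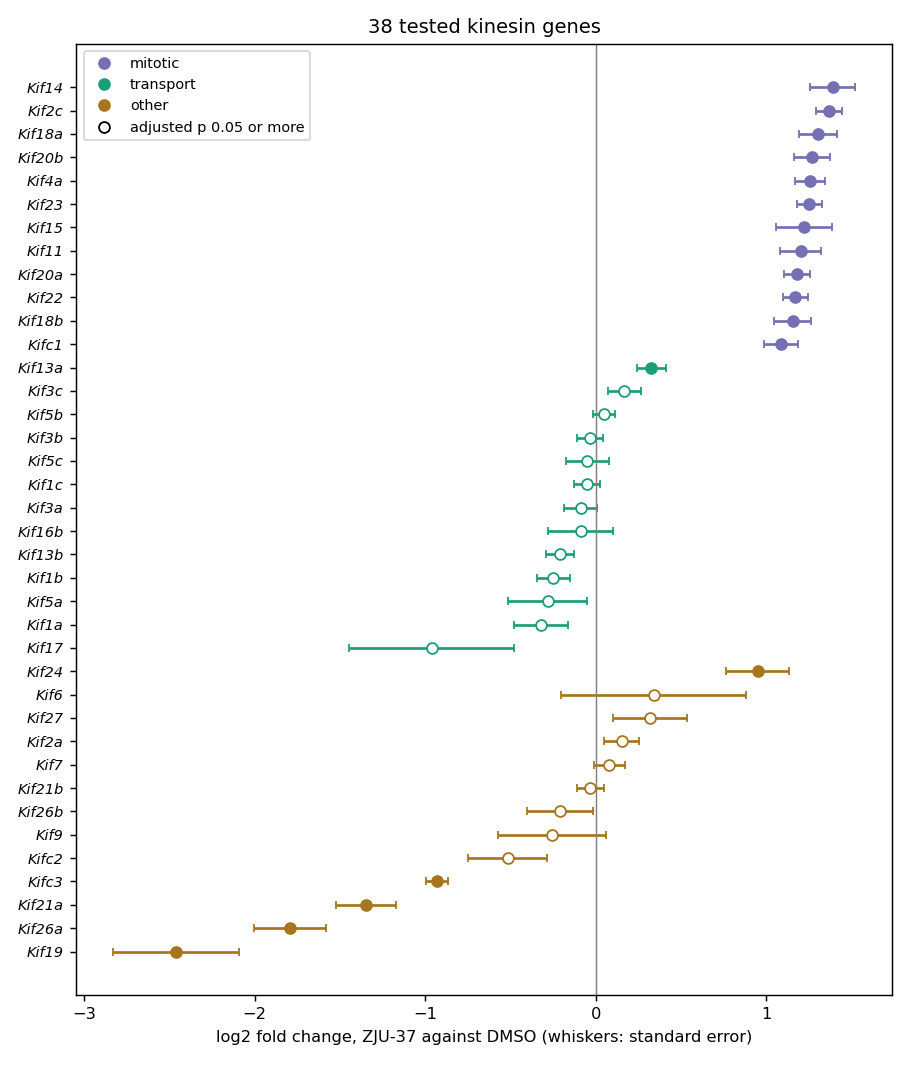
Log2 fold change of the 38 tested kinesin genes between ZJU-37 and DMSO (x axis), with standard errors as whiskers, coloured by class. Filled symbols passed an adjusted p under 0.05. The 12 mitotic members lie between 1.09 and 1.39, the transport members between -0.32 and 0.32 apart from Kif17 at -0.96, and the other members run from -2.46 to 0.95.

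Called members of the same subfamily differed in direction in 3 subfamilies (calls without the block). Within kinesin-8, Kif18a and Kif18b rose while Kif19 fell, and within kinesin-14, Kifc1 rose while Kifc3 fell. Kinesin-4 held the risen Kif4a, the fallen Kif21a and 3 members that were not called. In kinesin-13, Kif2c and Kif24 rose and Kif2a was not called, and in kinesin-3 the midbody motor Kif14 and the carrier Kif13a were the members that rose. All 3 tested kinesin-6 genes rose, between 1.18 and 1.27 on the log2 scale, and none of the 3 kinesin-1 or 4 kinesin-2 genes was called. Of all tested genes, 9.43% were called higher and 5.58% lower, so the absence of a call among 3 or 4 genes says little. With the replicate block Kif5a (kinesin-1), Kif17 (kinesin-2), Kif1a, Kif1b and Kif13b (kinesin-3) and Kifc2 (kinesin-14) were called lower as well. In that fit 15.9% of all tested genes were called lower.

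For 5 pairs of relatives, chosen after their values had been seen, the log2 ratio of both genes was taken in each library as a description, with no test. The ratio of Kif18a to Kif19 was 0.30 ± 0.65 with DMSO and 3.99 ± 0.25 with ZJU-37 (SD, n = 3), a change of 3.69. That of Kif4a to Kif21a changed by 2.57, that of Kifc1 to Kifc3 by 2.01, that of Kif14 to Kif1a by 1.70 and that of Kif2c to Kif2a by 1.21.

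Levels of different genes were set side by side per gene length, from the deposited FPKM values. With DMSO the most abundant kinesin was Kif1a, with 105 ± 21.2 FPKM (SD, n = 3), followed by Kif1b (67.2 ± 7.33), Kif5b (63.01 ± 2.99), Kifc3 (60.7 ± 2.12) and Kif1c (57.4 ± 1.55), and neighbours from Kif1b to Kifc3 differed by less than the larger of their SDs. The most abundant mitotic member, Kif22, had 27.1 ± 0.461 FPKM. With ZJU-37 Kif22 stood at 60.9 ± 5.75 FPKM, in the range of Kif5b (65.02 ± 2.82) and Kif1b (56.5 ± 3.20), while Kif1a had 83.8 ± 10.8 and Kifc3 31.8 ± 1.94.

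Summed over the class, mitotic kinesins had 143, 140.0 and 133 FPKM in DMSO replicates 1, 2 and 3 and 363, 297 and 299 FPKM in ZJU-37 replicates 1, 2 and 3. The transport class had 473, 401 and 400.3 FPKM with DMSO and 417, 379 and 379 FPKM with ZJU-37, so that the groups overlapped while the sum was lower with ZJU-37 in each of the 3 same-numbered pairs. The mitotic share of all kinesin FPKM was 17.7, 19.5 and 18.9% with DMSO and 39.3, 37.2 and 37.1% with ZJU-37, with means of 18.7% ± 0.931 and 37.8% ± 1.24 (SD, n = 3). The other class had 194, 176 and 168 FPKM with DMSO and 144, 123 and 128 FPKM with ZJU-37, lower in every treated library. These sums describe the members that were assigned to each class and were not tested.

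**Figure D4:**
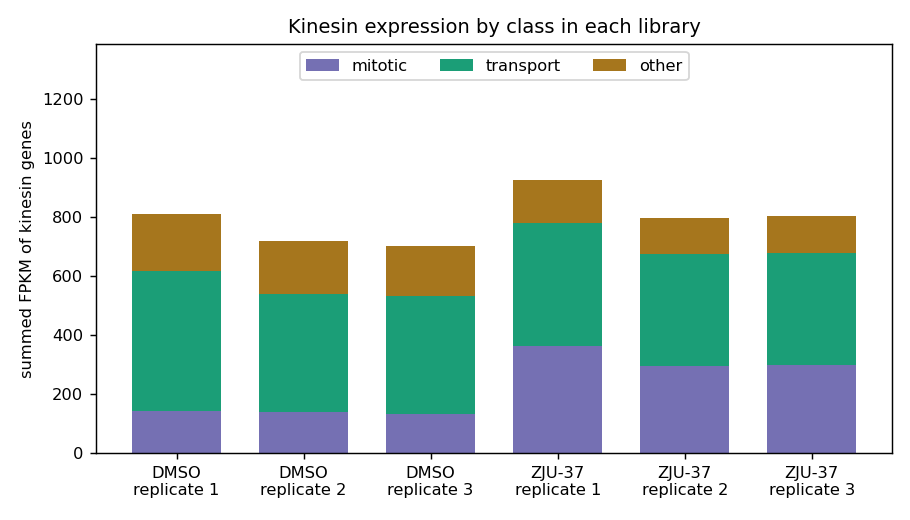
Summed FPKM of mitotic, transport and other kinesins in each of the 6 libraries (stacked bars from 0). The mitotic part grows from between 133 and 143 FPKM in the DMSO libraries to between 297 and 363 FPKM in the ZJU-37 libraries, while the transport part lies between 400.3 and 473 FPKM in the DMSO and between 379 and 417 FPKM in the ZJU-37 libraries.

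Genes that work with the kinesins were taken from lists made by function, with earlier results of these data known. Of 30 genes of the spindle and of cytokinesis, all 30 rose, beside 9.43% of all tested genes, with a median log2 fold change of 1.22, next to 1.24 for the mitotic kinesins. Cenpe, a kinesin-7 of the kinetochore whose symbol falls outside the name rule, was at 50.4, 45.5 and 41.1 CPM with DMSO and 124, 94.7 and 103 CPM with ZJU-37 (log2 fold change 1.24, standard error 0.12, adjusted p = 0.00112, edgeR). The 10 largest changes were those of Spag5, Racgap1, Ckap2, Hmmr, Aurkb, Ndc80, Nuf2, Espl1, Tpx2 and Prc1, with log2 fold changes from 1.48 down to 1.26. Racgap1, the partner of Kif23 in centralspindlin, went from 20.2 ± 1.55 CPM to 54.1 ± 6.14 CPM. Prc1, which bundles midzone microtubules and recruits Kif4a, went from 93.2 ± 4.16 CPM to 224 ± 18.8 CPM, and Tpx2, which binds Kif11 and Kif15 on spindle microtubules, from 83.5 ± 3.94 CPM to 201 ± 24.6 CPM (SD, n = 3 each).

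Partners of the transport motors were called in both directions. Of 28 kinesin light chain, adaptor and cofactor genes, 27 were tested, 3 rose (Trak2, Hap1 and Syne2, listed as AABR07064873.1) and 3 fell (Klc2, Arl8b and Kif1bp), beside 9.43% higher and 5.58% lower of all tested genes, with a median log2 fold change of -0.07. With the replicate block 5 were called higher and 4 lower, beside 16.2% and 15.9% of all tested genes. Klc2, a light chain of kinesin-1, fell (log2 fold change -0.42, standard error 0.08, adjusted p = 0.0144, edgeR), and Trak2, which ties kinesin-1 to mitochondria, rose (log2 fold change 0.47, standard error 0.09, adjusted p = 0.0129, edgeR). Of 29 dynein and dynactin genes, the machinery for transport toward the microtubule minus end, 28 were found and 27 tested. Among them 2 rose and 3 fell without the block, beside 9.43% higher and 5.58% lower of all tested genes, with a median of -0.06. With the block 2 were called higher and 4 lower, beside 16.2% and 15.9%. Dynll2, a light chain shared by dynein and myosin V, was the one called gene of the list with a change of more than 1 in size, at 1097, 857 and 778 CPM with DMSO and 312, 270.3 and 274 CPM with ZJU-37 (log2 fold change -1.67, standard error 0.14, adjusted p = 5.97e-04, edgeR). Spdl1, an adaptor that holds dynein at kinetochores, was the largest increase in that list (log2 fold change 0.97, standard error 0.14, adjusted p = 0.00441, edgeR).

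**Figure D5:**
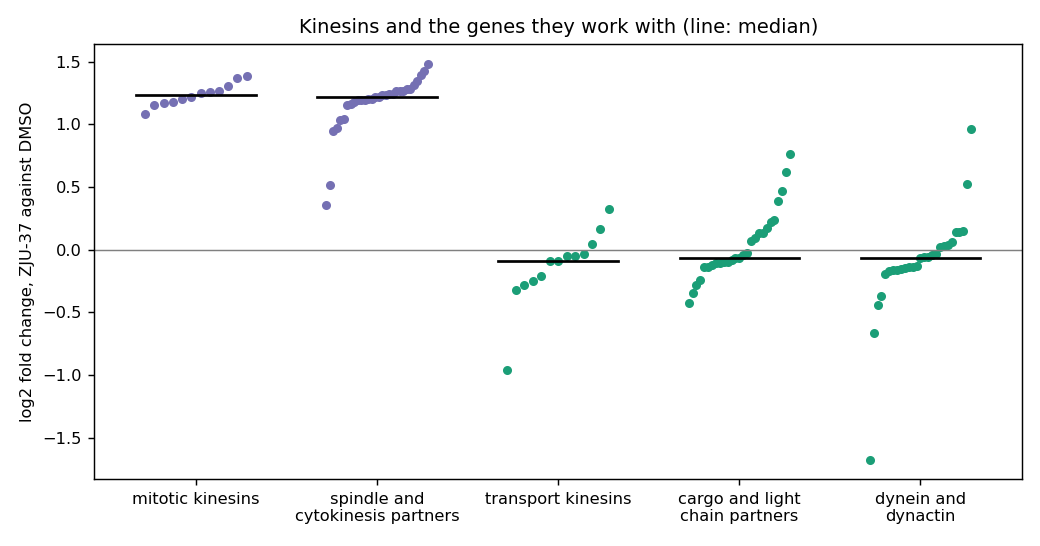
Log2 fold changes between ZJU-37 and DMSO of mitotic kinesins, their spindle and cytokinesis partners, transport kinesins, their cargo and light chain partners, and dynein and dynactin genes. Each point is 1 tested gene and each line the median of its list. The first 2 lists have medians of 1.24 and 1.22, and the other 3 have medians of -0.09, -0.07 and -0.06.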

How the data were processed

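Poly-A RNA of 3 DMSO and 3 ZJU-37 libraries was sequenced in read pairs. The submitters' processing notes name HISAT2 2.0.5, StringTie 1.3.3b and featureCounts 1.5.0, and the genome build is not given in the sources used here. The deposited counts are raw and per gene, and the deposited FPKM values are the authors' scaling of them to gene length and library total. The strand setting of the counting is not given. The authors' own DESeq2 columns (group means, fold changes, p-values) were not used.

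All genes were fitted together with edgeR 4.0.16 (filterByExpr, TMM factors from 0.981 to 1.04, robust glmQLFit, glmQLFTest) in R 4.3.3, and called at a Benjamini-Hochberg adjusted p under 0.05. FPKM values served for levels between genes. Kinesin classes, gene lists and the choice of members were made with earlier results of these data known. Every member is accounted for by name. Per-library values are given for called members, for the neuronal members and for Kif1b, and partner genes are named where called with a change of 1 or more in size on the log2 scale (at most 10 per list), with Cenpe added. The 6 cargo partners called without the block and Spdl1 were named after their values had been seen. Protein sequences were not used here. Older symbols were matched through the RefSeq gene table (GRCr8).

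The replicate numbers come from the labels. Across genes, deviations from the group mean had r from 0.30 to 0.37 between libraries of the same number and from -0.25 to -0.02 between others, so the numbers were taken to pair the libraries. The study calls the libraries biological repeats in one place and plate wells in another, so p-values measure the spread between these libraries, which may be technical. Alternatives were the replicate block, DESeq2 1.42.0, other normalizations and filters, limma 3.58.1 on log2(FPKM + 1) and log2(FPKM + 0.1), and leaving out each library. The test was checked on simulated counts. No pair of libraries was a duplicate (lowest chi-square per degree of freedom 11.8).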

Additional observations from a re-analysis of the deposited data

How the results depend on the processing

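All 12 mitotic calls were kept under each of the 14 alternatives, as were the decreases of Kif19, Kif26a, Kif21a and Kifc3. The log2 fold change of Kif19 was -2.46 in the main fit and ran from -2.69 to -1.32. The smallest in size came from limma on log2(FPKM + 1), where Kif26a had -1.59. The median log2 fold change of the mitotic members lay between 1.14 and 1.33, and that of the transport members between -0.13 and -0.05. Transport kinesins called lower went from 0 to 5 with the replicate block, which also took other kinesins called lower from 4 to 5 (Kifc2) and changed no other call of a member. Over all 14670 tested genes the block took the share called lower from 5.58% to 15.9%, and all called genes from 2201 to 4705. The block was fitted to the numbers in the labels, which pair the libraries. Transport kinesins called higher went from 1 to 0 with DESeq2 size factors in edgeR, with library size only, and with limma at either pseudocount, since Kif13a lost its call there. With 1 library left out, that count ran from 0 to 1, and the count of other kinesins called higher (Kif24) from 0 to 1. No value of a called member changed sign. The median over all tested genes stayed within 0.1 of its value under every scaling. At these depths Kif12 and Kif28p, with at most 2 counts per library, could not be compared.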
